A study of Mus musculus with 9 samples.

Results

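Osteoclasts labelled Acod1-deficient and given 4-octyl-itaconate were compared with untreated wild-type osteoclasts, across every gene with enough reads to be tested, which was 14264 of 54532 gene IDs. The treated cells, called KO_4OI after their libraries, carried the label Acod1 KO. On day 1 they were exposed to 4-octyl-itaconate (4-OI) at 50 µM, an itaconate ester that enters cells. Untreated cells with the KO label (KO_CTR) are given beside the comparison. The cells that KO_4OI was set against carried the label WT, and no dose of 4-OI was listed for them (WT_CTR). Each group had 3 libraries, so 6 of the 9 libraries of the series enter the contrast. In every group, mouse marrow from femur and tibia was first held overnight with M-CSF (macrophage colony-stimulating factor) at 5 ng/ml. RANKL at 10 ng/ml, together with M-CSF at 20 ng/ml, then drove differentiation, and RNA was taken on day 3. The labels give neither the strain and age of the mice nor the part of Acod1 that was deleted, nor the origin of each replicate. To the extent that libraries of a group shared a mouse, p-values would reflect technical spread among them alone. Wild-type cells given 4-OI were not analysed here. Genotype label and compound change together between KO_4OI and WT_CTR and cannot be told apart in that contrast alone.

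Osteoclasts are multinucleated cells of the monocyte lineage that dissolve bone. RANKL drives precursors to switch on the transcription factor NFATc1, to fuse, and to make the acid and the proteases that bone resorption needs, and it turns many macrophage genes down on the way. Itaconate is made by ACOD1 from a metabolite of the tricarboxylic acid (TCA) cycle in activated macrophages. Its ester 4-OI is known to alkylate KEAP1, the protein that holds back NRF2, and NRF2 then switches on genes of the antioxidant response.

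Levels are given as CPM, reads of a gene scaled to a common library size. Counted reads ranged from 27088949 to 27464110 in KO_4OI, from 24830149 to 28675699 in KO_CTR and from 25727540 to 35143629 in WT_CTR. Mitochondrially encoded transcripts took 2.14% to 3.83% of them over the 9 libraries. The first principal component, with 54.6% of the variance, placed the KO_4OI libraries at 55 to 67.5 and the other 6 libraries at -41 to -23.7. On the second component (19.2% of the variance) KO_CTR replicate 2 lay at -57.1, WT_CTR replicates 1 and 2 at 37.4 and 31.7, and the other 6 libraries between -14.3 and 2.2. KO_4OI replicate 3 and WT_CTR replicate 2 held reads of Xist, which is transcribed where an X chromosome is silenced, and the other 7 libraries held 0. Each side of the contrast therefore had 1 library of this kind. Y-linked genes had 8 reads in KO_4OI replicate 3 and 0 in WT_CTR replicate 2. They had 3948 and 4981 reads in the other KO_4OI libraries and 4403 and 3529 in the other WT_CTR libraries. The libraries of either side thus did not all come from 1 mouse. The cells had the transcripts that define osteoclasts. Per length of transcript, Ctsk (the collagen-degrading cathepsin K), Acp5 (tartrate-resistant acid phosphatase) and Mmp9 (a gelatinase) ranked at positions 12, 20 and 59 of all genes in KO_4OI, against positions 2, 8 and 14 in WT_CTR.

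Acod1, the targeted gene (GRCm38.p6, chr14:103046977-103056573), went against its label. It had 135, 168 and 131 reads in KO_4OI, 60, 86 and 47 in KO_CTR and 24, 27 and 55 in WT_CTR, and it was higher in KO_4OI than in WT_CTR (log2 fold change 2.24, SE 0.31, adjusted p = 1.68e-04). The groups KO_4OI and WT_CTR did not overlap. Gene-level counts cannot tell which part of Acod1 was read, and genotype is written as a label from here on.

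KO_4OI differed from WT_CTR at 3466 genes at an adjusted p under 0.05 (quasi-likelihood test of edgeR, Benjamini-Hochberg over all genes). This was 24.3% of the genes tested, with 1731 (12.1%) higher and 1735 (12.2%) lower. Large changes were more often increases: 320 genes were at least 4-fold higher and 177 at least 4-fold lower, and 53 were at least 16-fold higher and 7 at least 16-fold lower. In the same fit, KO_CTR differed from WT_CTR at 74 genes (0.519%), with 67 higher (0.47%) and 7 lower (0.0491%), and KO_4OI differed from KO_CTR at 3887 (27.3%). These contrasts share libraries, so values are given side by side. Genes are named by a rule given with the methods, and a further 46 genes were chosen after their values were seen, such as Nfatc1, Acp5, Dcstamp and Adgre1. The higher genes took 21.6%, 23.6% and 22.1% of all reads in the KO_4OI libraries, 9.77%, 10.9% and 9.77% in KO_CTR and 9.01%, 8.67% and 9.73% in WT_CTR. The lower genes took 12.4%, 11.3% and 12.8% in KO_4OI, 22.1% and 22.4% in 2 KO_CTR libraries and slightly more in the other, and 21.9%, 22.4% and 21.8% in WT_CTR. RNA was measured in bulk, so a transcript that is lower because fewer cells of a type were present cannot be told apart from one with less RNA per cell. Without the 2 libraries that held Xist reads, 2355 genes passed, 1185 of them higher. Without KO_CTR replicate 2, which enters through the shared spread, 4366 genes passed, 2238 of them higher.

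**Figure D1:**
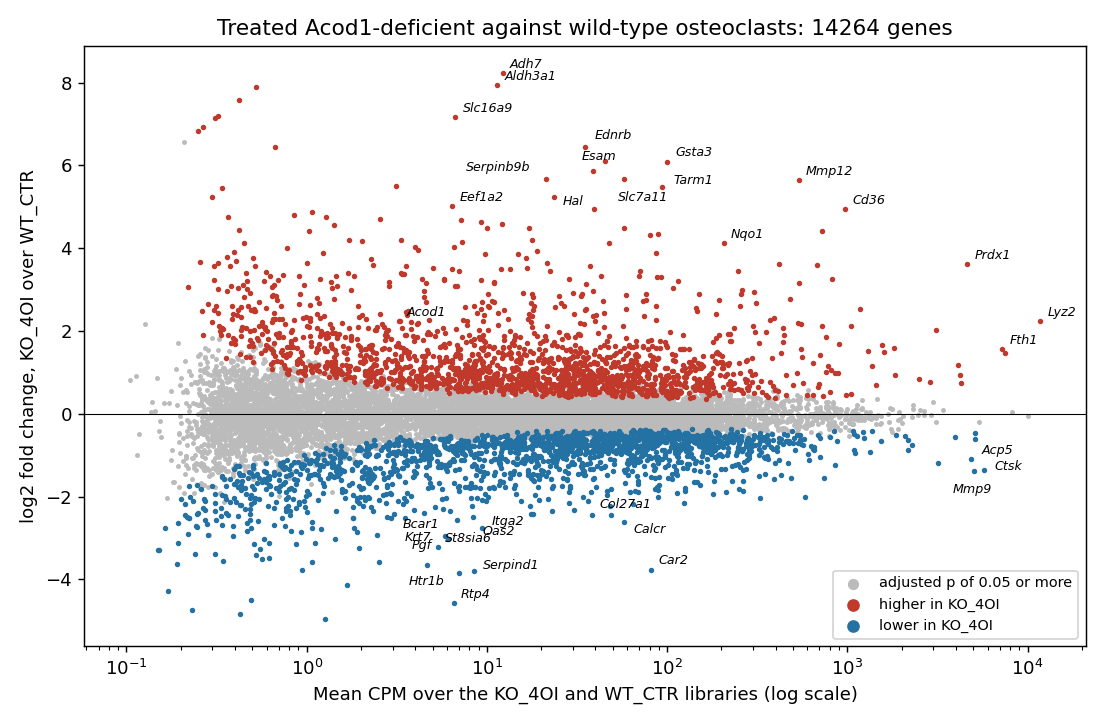
Each point is 1 of 14264 genes, with the mean CPM of the KO_4OI and WT_CTR libraries on a log axis across and the log2 fold change of KO_4OI over WT_CTR upwards. The 1731 red genes were higher and the 1735 blue genes lower in KO_4OI at an adjusted p under 0.05, and increases reached further from 0 (8.23 for Adh7) than decreases among the genes labelled (-4.58 for Rtp4).

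Nearly all targets of NRF2 rose. They encode enzymes that detoxify reactive molecules, make glutathione and store iron. Of 42 tested 40 rose, and 41 had all KO_4OI libraries above all WT_CTR libraries, a placing found for 19.8% of all genes. The median log2 fold change was 1.82, beside -0.0337 over all genes, and the median of the same list for KO_CTR over WT_CTR was -0.10. The glutathione transferase gene Gstp1 (0.32) and the aldo-keto reductase gene Akr1b10 (0.12) did not pass. This list and those below were chosen with earlier results of these data known. Their counts, set beside the shares of all genes, are therefore descriptions and not tests.

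NRF2 binds, with small MAF proteins, to the antioxidant response element, searched here as TGACNNNGC on both strands in RefSeq promoter windows of GRCm38.p6 (250 bases before to 50 after each gene start). It occurred in 13 of the 35 NRF2 targets that had a window, and in 14% of the 27025 genes of the table. The stretches around it are printed for the 3 most strongly called targets that held it, with the match in capitals, because these genes carry the antioxidant result. They are Prdx1 at chr4:116685426-116685514, Gclm at chr3:122245383-122245471 and Gsta3 at chr1:21240424-21240512, each on the plus strand. In the first 2 the element reads on the opposite strand. A match of letters is a description and does not show binding.
Prdx1: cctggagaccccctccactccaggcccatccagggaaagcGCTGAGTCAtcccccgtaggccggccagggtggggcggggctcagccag
Gclm: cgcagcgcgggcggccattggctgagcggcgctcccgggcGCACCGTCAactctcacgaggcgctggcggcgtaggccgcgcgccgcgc
Gsta3: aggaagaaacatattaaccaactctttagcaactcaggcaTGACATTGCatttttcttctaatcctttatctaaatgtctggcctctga

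Prdx1, a peroxiredoxin that removes hydrogen peroxide, had 8017, 9246 and 8379 CPM in KO_4OI, 601, 692 and 721 CPM in KO_CTR and 703, 685 and 713 CPM in WT_CTR (log2 fold change 3.61, SE 0.13, adjusted p = 1.97e-09). Per length of transcript it was the 10th most abundant RNA in KO_4OI and ranked 242nd in WT_CTR. Nqo1, a quinone reductase often used as a readout of NRF2, had 379, 407 and 381 CPM in KO_4OI, 15.8, 14.6 and 20.8 CPM in KO_CTR and 22.2, 21.7 and 23.1 CPM in WT_CTR (log2 fold change 4.12, SE 0.17, adjusted p = 4.69e-09). For both genes the KO_4OI libraries stood far above the other 6, and KO_CTR and WT_CTR lay close together. Gclm, the modifier subunit of the enzyme that starts glutathione synthesis, had 1521, 1347 and 1571 CPM in KO_4OI, against 166, 154 and 146 CPM in WT_CTR (log2 fold change 3.25, SE 0.14, adjusted p = 7.90e-09), and Gclc, its catalytic subunit, had a log2 fold change of 2.74. Slc7a11, the transporter that brings in cystine for glutathione, had 112, 139.7 and 86.3 CPM in KO_4OI, 2.65, 2.34 and 3.25 CPM in KO_CTR and 2.86, 2.01 and 1.85 CPM in WT_CTR (log2 fold change 5.66, SE 0.25, adjusted p = 1.17e-08). Gsta3, a glutathione transferase with close paralogs among which reads may be split, had 179, 217 and 192 CPM in KO_4OI, against 3.09, 3.29 and 2.28 CPM in WT_CTR (log2 fold change 6.09, SE 0.26, adjusted p = 8.94e-09). The libraries of KO_4OI and WT_CTR did not overlap for any of these genes. Hmox1, heme oxygenase 1, which breaks down heme, rose as well, with 918, 1001 and 1004 CPM in KO_4OI, against 114, 97.6 and 114 CPM in WT_CTR (log2 fold change 3.17, SE 0.18, adjusted p = 5.04e-08).

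Adh7, an alcohol dehydrogenase gene, and Aldh3a1, an aldehyde dehydrogenase gene, had the largest fitted increases of the genes named. Adh7 had 1967 reads in KO_4OI as a whole and 7 in WT_CTR as a whole, a ratio of 319 (154 to 794, exact 95% Clopper-Pearson bounds for counting error alone). Aldh3a1 had 1834 reads against 8, a ratio of 260 (interval 132 to 604). In WT_CTR both genes were thus close to absent at this depth, and their fitted log2 fold changes of 8.23 and 7.94 rest on few reads there.

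**Figure D2:**
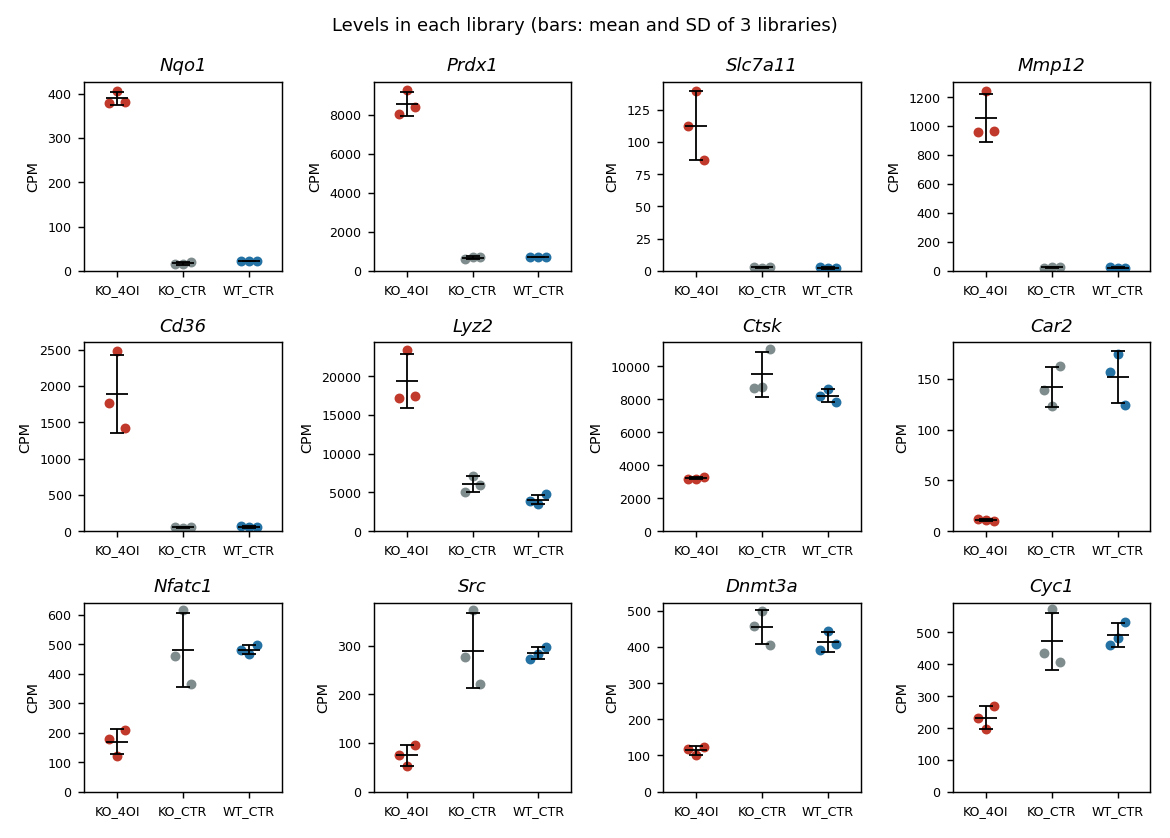
CPM of 12 genes in each library, with the 3 KO_4OI libraries in red, the 3 KO_CTR libraries in grey and the 3 WT_CTR libraries in blue; bars give the mean and SD of 3 libraries and each axis starts at 0. Nqo1, Prdx1, Slc7a11, Mmp12, Cd36 and Lyz2 were higher in KO_4OI, and Ctsk, Car2, Nfatc1, Src, Dnmt3a and Cyc1 were lower, with no overlap between KO_4OI and WT_CTR for any of the 12.

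Genes of glutathione synthesis and use moved both ways. Of 29 tested 15 rose and 4 fell (median 0.73). The microsomal transferases Mgst1 (4.33) and Mgst2 (2.74) rose, and so did Gstm1 (2.60). The theta-class transferase Gstt1 fell, with 6.13, 5.64 and 5.26 CPM in KO_4OI, against 24.5, 32.6 and 34.6 CPM in WT_CTR (log2 fold change -2.43, SE 0.18, adjusted p = 9.15e-07), as did Gstt3 (-0.80) and the amino acid transporters Slc1a5 (-1.21) and Slc7a5 (-0.89). The call for Slc7a5 was lost without WT_CTR replicate 3 (adjusted p = 0.0504) and without KO_4OI replicate 1 (adjusted p = 0.0591). In the thioredoxin and peroxiredoxin system 9 of 18 rose. Sulfiredoxin (Srxn1), which repairs over-oxidised peroxiredoxins, had 615, 636 and 696 CPM in KO_4OI, against 138, 122 and 129 CPM in WT_CTR (log2 fold change 2.32, SE 0.13, adjusted p = 5.04e-08). The members that fell were Prdx3 (-0.52, adjusted p = 0.0194) and Txn2 (-0.49, adjusted p = 0.0211), whose products act in mitochondria. Prdx3 did not pass without KO_4OI replicate 2, KO_4OI replicate 3, WT_CTR replicate 1 or WT_CTR replicate 2 (adjusted p 0.0605 to 0.0991), nor without the libraries that held Xist reads (adjusted p = 0.198). Txn2 did not pass without KO_4OI replicate 1, KO_4OI replicate 2, WT_CTR replicate 1, WT_CTR replicate 2 or WT_CTR replicate 3 (adjusted p 0.0527 to 0.0969).

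NADPH is the electron source for these enzymes. Of 13 genes of the pentose phosphate route and other NADPH sources 7 rose and 1, Mthfd1, fell. The call for Mthfd1 was lost without WT_CTR replicate 1 (adjusted p = 0.0501) and without KO_4OI replicate 2 (adjusted p = 0.0585). G6pdx, the entry enzyme of the route, had 687, 742 and 688 CPM in KO_4OI, against 181, 175 and 207 CPM in WT_CTR (log2 fold change 1.91, SE 0.13, adjusted p = 3.34e-07). Taldo1, Idh1 and malic enzyme Me1 had log2 fold changes of 1.60, 1.76 and 2.41. The ferritin genes were among the most abundant RNAs. Per length, Ftl1 averaged 22250 TPM (transcript level scaled for length and depth) in KO_4OI, against 8241 in WT_CTR, and Fth1 8400, against 2918. Both rose (1.47 and 1.57 on the log2 scale). The iron exporter Slc40a1 (2.90) and the phagosomal metal transporter Slc11a1 (2.68) also rose. The transferrin receptor Tfrc, which takes iron in, fell, with 272, 268 and 198 CPM in KO_4OI, against 868, 819.9 and 488 CPM in WT_CTR (log2 fold change -1.56, SE 0.30, adjusted p = 0.00173), and so did the iron importer Slc11a2 (-0.78). The groups did not overlap for Tfrc, although WT_CTR replicate 3 lay well below the other WT_CTR libraries.

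Of 13 regulators of NRF2 4 rose and 1 fell. Nfe2l2, the gene for NRF2, had 174, 182 and 154 CPM in KO_4OI, against 121, 116 and 91.1 CPM in WT_CTR (log2 fold change 0.64, SE 0.15, adjusted p = 0.00693). Its competitor Bach1 (0.86), the partner Mafg (0.80) and Sqstm1 (1.02), an autophagy receptor that binds KEAP1, were higher, the partner Maff was lower (-1.12), and Keap1 had a log2 fold change of 0.47 that did not pass (adjusted p = 0.0742, and 0.0168 without KO_CTR replicate 2 and 0.0426 without WT_CTR replicate 3). The call for Mafg was lost without the libraries that held Xist reads (adjusted p = 0.0704).

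Cholesterol synthesis genes rose together: 19 of 25 passed, each upwards, with a median log2 fold change of 1.01 (median -0.06 for KO_CTR over WT_CTR). Fdft1, squalene synthase, had 68.3, 73.4 and 62.1 CPM in KO_4OI, 22.1, 24.7 and 22.2 CPM in KO_CTR and 19.2, 19.4 and 25.2 CPM in WT_CTR (log2 fold change 1.67, SE 0.16, adjusted p = 6.95e-06). Cyp51, lanosterol demethylase, had 124, 134 and 114 CPM in KO_4OI, against 42.7, 40.9 and 36.9 CPM in WT_CTR (log2 fold change 1.63, SE 0.17, adjusted p = 1.18e-05). Fdps, which makes farnesyl diphosphate (2.02), rose as well, whereas Srebf2, the gene for the factor that drives the pathway, had a log2 fold change of 0.08 and did not pass. The sterol regulatory element, searched as TCACNCCAC on both strands, was found in the window of 1 of 18 members that had one, Hmgcs1, and in 1.44% of all genes; the change of Hmgcs1 did not pass (0.65, adjusted p = 0.0648), but did without KO_CTR replicate 2 (adjusted p = 0.00383) and without KO_4OI replicate 3 (adjusted p = 0.0334).

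Genes of lipid uptake, storage and desaturation rose too. Of 22 genes on the liver X receptor and lipid list 11 passed, each upwards. Cd36, the scavenger receptor for fatty acids and oxidised lipoproteins, had 1761, 2479.9 and 1423 CPM in KO_4OI, 55.0, 45.2 and 58.0 CPM in KO_CTR and 75.5, 55.8 and 53.2 CPM in WT_CTR (log2 fold change 4.94, SE 0.23, adjusted p = 1.57e-08). Plin2, which coats lipid droplets, had 1146, 1190.0 and 1201 CPM in KO_4OI, against 264, 259 and 285 CPM in WT_CTR (log2 fold change 2.13, SE 0.13, adjusted p = 7.95e-08). The fatty acid binding protein gene Fabp4 (4.04) and the desaturases Fads2 (2.60) and Scd1 (2.21) were higher. The exporters Abca1 (-0.33) and Abcg1 (-0.11), Apoe (0.23) and the receptor gene Nr1h3 (-0.47) did not pass. Lipa, which frees cholesterol from its esters in lysosomes, rose, with 1995, 2091 and 1936 CPM in KO_4OI, against 350.3, 348 and 348 CPM in WT_CTR (log2 fold change 2.53, SE 0.12, adjusted p = 1.38e-08). For Cd36, Plin2 and Lipa the lowest KO_4OI library lay several-fold above the highest WT_CTR library.

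**Figure D3:**
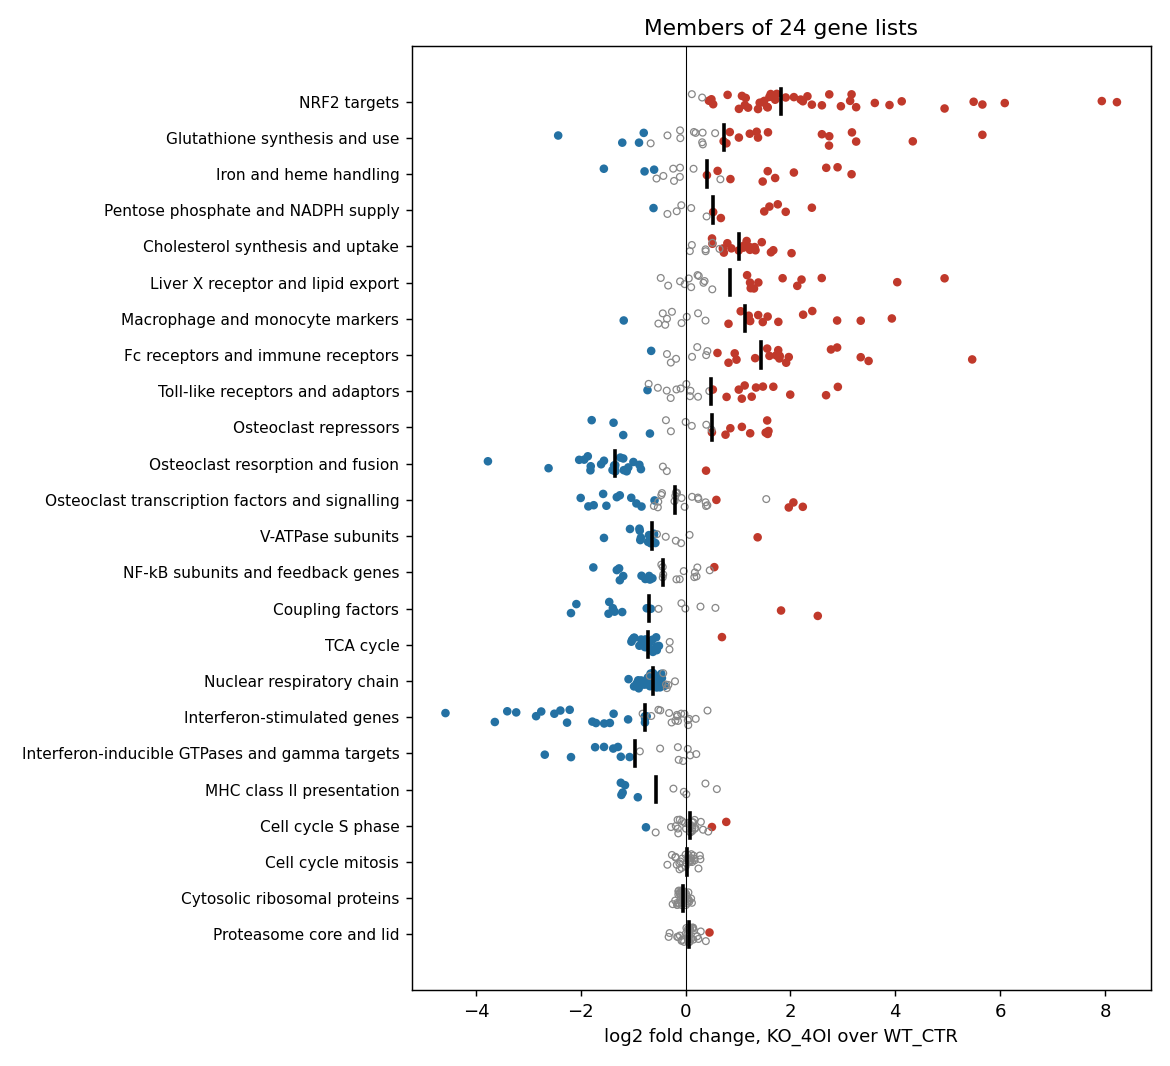
Each point is a gene of 1 of 24 lists, placed across by its log2 fold change of KO_4OI over WT_CTR. Red points rose and blue points fell at an adjusted p under 0.05, open points did not pass, and black bars mark each list's median. NRF2 targets sit furthest right (median 1.82), osteoclast resorption and fusion genes furthest left (median -1.34), and mitotic and ribosomal protein genes lie around 0.

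The resorption machinery was lower. Of 25 genes of bone resorption and cell fusion 22 fell and 1 rose, with a median log2 fold change of -1.34 (median -0.05 for KO_CTR over WT_CTR). Car2, the carbonic anhydrase that supplies protons to the resorbing surface, had 12.1, 11.2 and 10.1 CPM in KO_4OI, 139, 124 and 162 CPM in KO_CTR and 157, 175 and 125 CPM in WT_CTR (log2 fold change -3.77, SE 0.18, adjusted p = 1.57e-08). Ctsk had 3187, 3196 and 3316 CPM in KO_4OI, 8689.7, 8775 and 11064 CPM in KO_CTR and 8172, 8653 and 7864 CPM in WT_CTR (log2 fold change -1.35, SE 0.12, adjusted p = 4.36e-06). In both genes the KO_4OI libraries lay close together and below the other 6. Acp5 had 3007, 2946 and 3337 CPM in KO_4OI, against 6053, 6365 and 7396 CPM in WT_CTR (log2 fold change -1.09, SE 0.14, adjusted p = 8.79e-05), and Mmp9 had 2723, 1896 and 3760.5 CPM in KO_4OI, against 7026, 7122 and 7866 CPM in WT_CTR (log2 fold change -1.39, SE 0.24, adjusted p = 8.35e-04). Calcr, the receptor for the hormone calcitonin, which halts resorption, had 17.8, 15.7 and 15.1 CPM in KO_4OI, against 110.5, 107 and 80.3 CPM in WT_CTR (log2 fold change -2.61, SE 0.25, adjusted p = 6.87e-06).

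The fusion genes Ocstamp (-1.81), Dcstamp (-1.34) and Atp6v0d2 (-1.56) fell, as did the vitronectin receptor chains Itgb3 (-1.61) and Itgav (-1.24), the immune co-receptor Oscar (-1.34) and the proton pump subunit Tcirg1 (-0.88). Src, the kinase needed to form the ruffled border through which acid is secreted, had 75.3, 53.1 and 94.9 CPM in KO_4OI, 276, 372 and 221 CPM in KO_CTR and 272, 284 and 297 CPM in WT_CTR (log2 fold change -1.93, SE 0.22, adjusted p = 2.93e-05). In KO_4OI it was below both other groups in every library, and the KO_CTR libraries spread widely around the WT_CTR values. Ostm1 (-0.36) and Plekhm1 (-0.43) did not pass, although Plekhm1 did without KO_CTR replicate 2 (adjusted p = 0.0401). The tetraspanin Cd9 was the member that rose (0.39, adjusted p = 0.0293), which did not hold without KO_4OI replicate 1, KO_4OI replicate 2, KO_4OI replicate 3, WT_CTR replicate 1 or WT_CTR replicate 2 (adjusted p 0.0674 to 0.127), nor without the libraries that held Xist reads (adjusted p = 0.203).

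Among 34 transcription factors and signalling genes of osteoclasts, 11 fell and 4 rose, with a median of -0.20. Nfatc1, the factor that RANKL induces, had 177, 122 and 207 CPM in KO_4OI, 460.2, 615 and 365 CPM in KO_CTR and 481, 467 and 496 CPM in WT_CTR (log2 fold change -1.51, SE 0.21, adjusted p = 1.47e-04). Prdm1, which represses macrophage genes during osteoclast formation, had 32.6, 22.1 and 31.5 CPM in KO_4OI, against 114, 108 and 90.5 CPM in WT_CTR (log2 fold change -1.85, SE 0.17, adjusted p = 5.93e-06). Fosl2 (-1.57) and the coactivator Ppargc1b (-1.75) fell too, and so did the RANKL receptor Tnfrsf11a (-1.04). Csf1r, the M-CSF receptor, did not pass (-0.08). The members that rose were Sirpb1a (2.24), Trem2 (1.97), both immune receptors, the kinase Mapk14 (0.59) and Fosl1 (2.06). Mapk14 did not pass without the libraries that held Xist reads (adjusted p = 0.0564).

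Genes known to hold back osteoclast formation moved both ways: 9 of 19 rose and 4 fell (median 0.50). Irf8, which blocks NFATc1, had 123, 125 and 142 CPM in KO_4OI, against 34.8, 37.2 and 58.4 CPM in WT_CTR (log2 fold change 1.58, SE 0.23, adjusted p = 2.39e-04). The inhibitor of DNA binding Id1 (1.53) and Cebpb (1.57) rose. Zfp36l1 (-1.79) and Tnfaip3 (-1.19), which limits NF-kB signalling, fell. Without the libraries that held Xist reads 5 members rose. Dnmt3a, a DNA methyltransferase that in mouse osteoclast precursors silences Irf8, had 118, 100.5 and 124 CPM in KO_4OI, 458, 500.5 and 407 CPM in KO_CTR and 391, 444 and 407 CPM in WT_CTR (log2 fold change -1.86, SE 0.14, adjusted p = 9.15e-07), with every KO_4OI library far below the other 6.

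Of 18 subunits of the vacuolar proton pump 12 fell and 1 rose. Atp6v1b2, with the smallest p of them, had 1551, 1527 and 1555 CPM in KO_4OI, against 2884, 2874 and 2676 CPM in WT_CTR (log2 fold change -0.86, SE 0.11, adjusted p = 6.01e-05). Atp6v0a1, the a1 form of the membrane subunit, rose (1.37), whereas the a3 form used by osteoclasts, Tcirg1, fell. Of 31 lysosomal genes 10 rose and 3 fell (median 0.10), and 5 fell without KO_CTR replicate 2. The cathepsins Ctsl (1.66) and Ctss (1.69) rose, in contrast to Ctsk.

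Matrix proteases moved both ways. Mmp12, macrophage elastase, had 956, 1244 and 965 CPM in KO_4OI, 21.9, 23.9 and 24.8 CPM in KO_CTR and 23.5, 19.6 and 20.5 CPM in WT_CTR (log2 fold change 5.64, SE 0.17, adjusted p = 6.79e-10). Mmp8 (4.42) and the collagenase gene Mmp13 (4.58) rose, while Mmp9 and the membrane-bound Mmp14 (-2.03) and the inhibitor Timp2 (-1.27) fell. Of 17 genes of this list 4 rose and 3 fell, and without KO_CTR replicate 2 8 rose. For Mmp12 the KO_CTR and WT_CTR libraries overlapped, and every KO_4OI library lay far above them.

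Of 17 integrin genes 5 rose and 5 fell. The leukocyte integrins Itgax (1.37), Itgam (1.22), Itgal (1.35) and Itgb2 (1.05) rose, and Itgb3, Itgav and the collagen receptor chain Itga2 (-2.77) fell. The median of the list was -0.16, and 0.09 without the libraries that held Xist reads. Of 28 genes of the actin ring and podosomes 11 fell and 6 rose (median -0.35). The motor Myo1e fell (-1.61), as did the tubulin Tubb6 (-1.47), and the tubulins Tuba1a (1.63) and Tubb2a (1.59) rose. The adaptor Bcar1, which Src phosphorylates at adhesion sites, had 1.94, 1.31 and 2.65 CPM in KO_4OI, against 11.3, 11.8 and 12.1 CPM in WT_CTR (log2 fold change -2.57, SE 0.27, adjusted p = 1.60e-05). Signals from osteoclasts to bone-forming cells were mostly lower, with 9 of 16 such coupling factors down and 2 up. Cthrc1 (-2.08), Bmp2 (-2.19) and Sphk1 (-1.39) fell, and Igf1 rose, with 73.8, 137 and 89.4 CPM in KO_4OI, against 18.3, 15.3 and 18.8 CPM in WT_CTR (log2 fold change 2.52, SE 0.22, adjusted p = 3.17e-06).

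Genes that respond to interferons, many of them antiviral, were lower in KO_4OI than in wild-type cells although they lay higher in untreated cells of the same genotype label. Of 37 interferon-stimulated genes tested 20 fell and the other 17 did not pass, with a median log2 fold change of -0.77 for KO_4OI over WT_CTR, 1.19 for KO_CTR over WT_CTR and -2.21 for KO_4OI over KO_CTR. The mean of the list, on the log2(CPM + 0.5) scale and relative to WT_CTR, was -0.90, -0.70 and -1.02 in the KO_4OI libraries, 0.91, 1.24 and 1.07 in KO_CTR and -0.21, 0.05 and 0.16 in WT_CTR, so the 3 groups did not overlap. Of 16 interferon-inducible GTPases and interferon gamma targets 8 fell (5 without the libraries that held Xist reads) and the others did not pass.

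The interferon-stimulated response element, searched on both strands as a pair of TTTC with any 2 bases between them, was present in 16 of 27 interferon-stimulated genes that had a promoter window and in 10 of 12 genes of the GTPase list, and in 3.99% of all genes of the table. Windows around the matches are printed for Ifit1 (chr19:34640745-34640853), Slfn5 (chr11:82951907-82951996) and Ifit3 (chr19:34583333-34583456), the 3 with the smallest p among the interferon-stimulated genes that held it, all on the plus strand of GRCm38.p6 and from RefSeq, with the matches in capitals. Ifit1 and Ifit3 hold 2 matches each, and in Slfn5 the element reads on the opposite strand.
Ifit1: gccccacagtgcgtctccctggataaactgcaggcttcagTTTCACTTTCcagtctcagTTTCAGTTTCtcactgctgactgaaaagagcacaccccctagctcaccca
Slfn5: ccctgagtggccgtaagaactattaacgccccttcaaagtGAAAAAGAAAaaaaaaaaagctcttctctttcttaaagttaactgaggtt
Ifit3: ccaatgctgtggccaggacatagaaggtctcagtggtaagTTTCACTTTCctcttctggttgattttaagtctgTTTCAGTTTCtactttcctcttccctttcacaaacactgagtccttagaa

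Rtp4, an interferon-induced chaperone of receptors, fell most of the genes named: it had 0.477, 0.560 and 0.530 CPM in KO_4OI, 22.2, 34.9 and 32.0 CPM in KO_CTR and 11.6, 12.4 and 13.7 CPM in WT_CTR (log2 fold change -4.58, SE 0.25, adjusted p = 3.73e-08). Its 42 reads in KO_4OI as a whole and 1158 in WT_CTR as a whole gave a ratio of 0.0412 (exact 95% bounds 0.0295 to 0.056). Ifit1 and Ifit3, which bind viral RNA or the complexes that do so, had 30 and 37 reads over KO_4OI and 331 and 311 over WT_CTR, ratios of 0.103 (0.0683 to 0.15) and 0.135 (0.0933 to 0.19). In CPM, Ifit3 had 0.624, 0.560 and 0.189 CPM in KO_4OI, 10.4, 18.5 and 15.5 CPM in KO_CTR and 2.47, 3.39 and 4.10 CPM in WT_CTR (log2 fold change -2.85, SE 0.37, adjusted p = 9.12e-05). Oasl2, a relative of the enzymes that sense double-stranded RNA, had 1.17, 1.79 and 1.36 CPM in KO_4OI, 20.6, 29.6 and 21.9 CPM in KO_CTR and 6.22, 8.27 and 8.18 CPM in WT_CTR (log2 fold change -2.39, SE 0.23, adjusted p = 8.30e-06). For each of Rtp4, Ifit1, Ifit3 and Oasl2 the order was KO_4OI below WT_CTR below KO_CTR with no overlap between groups. Ifit and Oas genes have close paralogs among which reads may be split.

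Other members did not pass against wild type. Ifi47, an interferon gamma-inducible GTPase, had 8.03, 10.1 and 8.47 CPM in KO_4OI, 21.4, 28.0 and 25.3 CPM in KO_CTR and 7.69, 11.0 and 10.7 CPM in WT_CTR, so KO_4OI overlapped with WT_CTR (-0.15, adjusted p = 0.65) while KO_CTR was higher (1.34, adjusted p = 0.0141). Mx2 had log2 fold changes of -0.16 for KO_4OI over WT_CTR and 2.31 for KO_CTR over WT_CTR, and Ifit2 of -0.17 and 1.53. The interferon receptor gene Ifnar1 (0.13) did not pass. Irf7, which amplifies the response, fell, with 3.81, 3.77 and 4.09 CPM in KO_4OI, 24.7, 58.7 and 26.2 CPM in KO_CTR and 9.27, 11.7 and 19.0 CPM in WT_CTR (log2 fold change -1.78, SE 0.34, adjusted p = 0.0018). Among the genes with the smallest p for KO_CTR over WT_CTR, Pira2, a paired immunoglobulin-like receptor with near-identical relatives, had 39.5, 47.7 and 34.9 CPM in KO_4OI, 36.1, 34.1 and 45.7 CPM in KO_CTR and 11.1, 14.9 and 9.23 CPM in WT_CTR (log2 fold change 1.80, SE 0.21, adjusted p = 3.20e-05). Gadd45a, a stress gene, had 6.82, 7.73 and 7.26 CPM in KO_4OI, 6.02, 9.58 and 7.38 CPM in KO_CTR and 2.66, 2.37 and 3.28 CPM in WT_CTR (log2 fold change 1.39, SE 0.21, adjusted p = 3.62e-04). In these 2 genes KO_4OI and KO_CTR overlapped and both lay above WT_CTR.

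**Figure D4:**
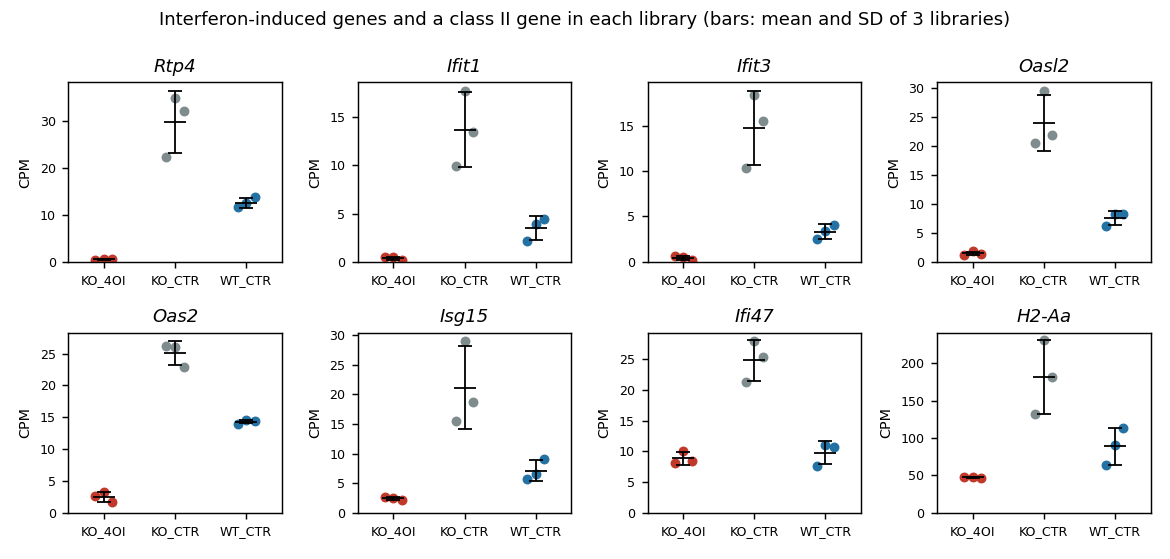
CPM of 7 interferon-induced genes and the class II gene H2-Aa in the KO_4OI (red), KO_CTR (grey) and WT_CTR (blue) libraries, with the mean and SD of 3 libraries as bars and each axis starting at 0. Rtp4 stood at 0.477 to 0.56 CPM in KO_4OI, 22.2 to 34.9 CPM in KO_CTR and 11.6 to 13.7 CPM in WT_CTR, and in Ifi47 the KO_4OI and WT_CTR libraries overlap.

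Class II antigen presentation was also lower in KO_4OI. Of 10 genes 5 fell and the others did not pass. Cd74, the invariant chain that escorts class II molecules, had 160.0, 154 and 184 CPM in KO_4OI, 548, 965 and 543 CPM in KO_CTR and 271, 351 and 488 CPM in WT_CTR (log2 fold change -1.16, SE 0.24, adjusted p = 0.0031). H2-Ab1 (-1.22), H2-Eb1 (-1.20), H2-Aa (-0.91) and their activator Ciita (-1.24) fell. The WT_CTR libraries were themselves uneven, and the mean of the list in WT_CTR replicate 1 lay within the KO_4OI range. The call for Ciita was lost without KO_4OI replicate 1 (adjusted p = 0.0536) and that for H2-Aa without the libraries that held Xist reads (adjusted p = 0.0559). Of 20 class I genes 3 rose (15%), near the 12.1% of all genes that did. That count was 0 without WT_CTR replicate 1, without KO_4OI replicate 2 and without the libraries that held Xist reads, 1 without WT_CTR replicate 2 or KO_4OI replicate 3, and 5 without KO_CTR replicate 2. The shared light chain B2m (-0.05) did not pass. Dendritic cell markers gave no common direction, with 4 of 20 higher and 3 lower. Batf3 (2.99, from 36 reads over WT_CTR) and Cd24a (0.99) rose, and Zbtb46 (-1.60) fell.

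Macrophage and monocyte markers were higher than in WT_CTR: 14 of 24 rose and 1 fell, with a median log2 fold change of 1.13 (median 0.59 for KO_CTR over WT_CTR). For KO_4OI over KO_CTR 9 were higher and 7 lower, with a median of 0.3. Lyz2, the lysozyme of myeloid cells (GRCm38.p6, chr10:117277331-117282321), had 17153, 23356 and 17487 CPM in KO_4OI, 5069, 7164 and 5957 CPM in KO_CTR and 3938, 3550.4 and 4771 CPM in WT_CTR (log2 fold change 2.24, SE 0.17, adjusted p = 1.14e-06). Per length it was the most abundant RNA in KO_4OI, at a mean of 39744 TPM, and it ranked 9th in WT_CTR, at 8606 TPM. Adgre1, the F4/80 antigen, had 577, 813 and 498 CPM in KO_4OI, 306, 299.9 and 403 CPM in KO_CTR and 219, 228 and 234 CPM in WT_CTR (log2 fold change 1.47, SE 0.18, adjusted p = 6.07e-05). The scavenger receptors Marco (3.93) and Msr1 (1.77), the beta-glucan receptor Clec7a (3.34) and the uptake receptor Mertk (1.38) rose. Cd14 (0.24) and Mrc1 (0.02) did not pass. The complement gene C1qa fell (-1.18, adjusted p = 0.0299), but not without WT_CTR replicate 3, KO_4OI replicate 1 or KO_4OI replicate 2 (adjusted p = 0.17, 0.127 and 0.0782). In Lyz2 and Adgre1 the KO_CTR libraries lay between the other groups. The sum of the list was 22364, 29362 and 23036 CPM in KO_4OI, 10477, 14660 and 11290 CPM in KO_CTR and 8238, 7766 and 9843 CPM in WT_CTR. Some members had too few reads to be tested. Timd4, a marker of resident macrophages, had 0 reads over KO_4OI, 9 over KO_CTR and 0 over WT_CTR. In the same order, Vsig4 had 22, 10 and 5 reads and Ly6c1 had 4, 9 and 3.

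Immune receptors showed the same direction. Of 26 Fc and related receptors 18 rose and 1, Clec12a (-0.66), fell, with a median of 1.44 (median 0.41 for KO_CTR over WT_CTR). Clec12a did not pass without the libraries that held Xist reads (adjusted p = 0.0774). Tarm1, an activating receptor of myeloid cells, had 169, 179.7 and 202 CPM in KO_4OI, 2.81, 3.18 and 3.94 CPM in KO_CTR and 4.75, 3.46 and 4.25 CPM in WT_CTR (log2 fold change 5.47, SE 0.20, adjusted p = 1.97e-09). Clec4d had 801, 935 and 768 CPM in KO_4OI, against 132, 116 and 118 CPM in WT_CTR (log2 fold change 2.77, SE 0.14, adjusted p = 1.89e-08), and Fcgr3, a low-affinity receptor for IgG, had 403, 536 and 414 CPM in KO_4OI, against 50.8, 51.1 and 80.5 CPM in WT_CTR (log2 fold change 2.89, SE 0.25, adjusted p = 2.62e-06). The signalling partner Tyrobp (0.12), which both osteoclasts and macrophages use, did not pass. Toll-like receptor genes and adaptors had a median of 0.49 for KO_4OI over WT_CTR. It was 0.41 for KO_CTR over WT_CTR and 0.09 for KO_4OI over KO_CTR, with 8 higher and 4 lower in the last. Of the 24 tested, 12 rose against WT_CTR and 1 fell (2 without KO_CTR replicate 2). Those that sense nucleic acids in endosomes were among them: Tlr13 had 249, 344 and 198 CPM in KO_4OI, against 38.8, 34.8 and 32.1 CPM in WT_CTR (log2 fold change 2.90, SE 0.23, adjusted p = 1.51e-06), Tlr8 and Tlr7 had log2 fold changes of 2.68 and 1.67, and Tlr9 (-0.28) did not pass.

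**Figure D5:**
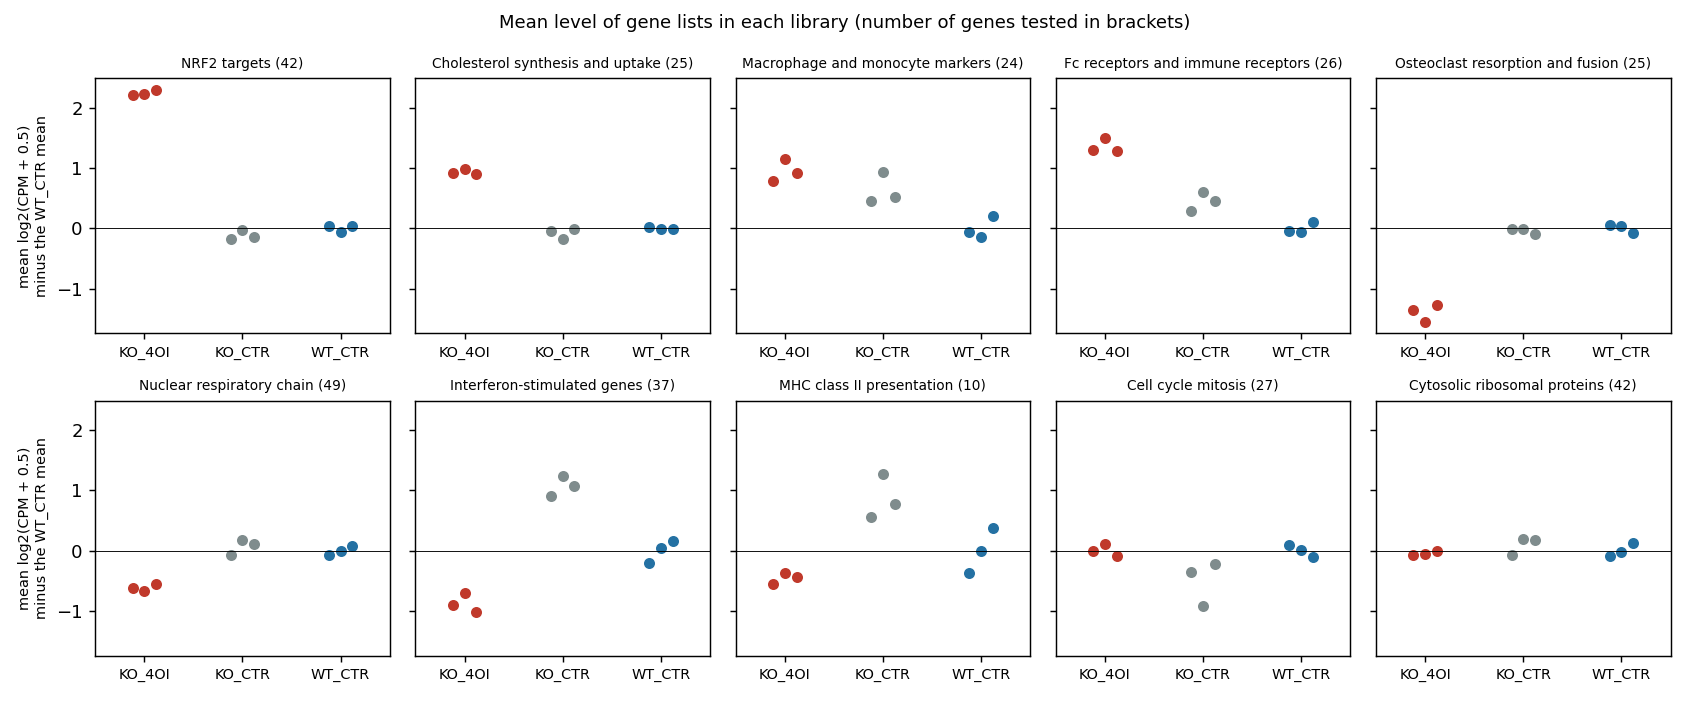
Mean log2(CPM + 0.5) of 10 gene lists in each library, relative to the mean of WT_CTR (line at 0), for the KO_4OI (red), KO_CTR (grey) and WT_CTR (blue) libraries. NRF2 targets lie at 2.20 to 2.29 in KO_4OI and resorption genes at -1.55 to -1.27, macrophage markers are higher in both KO_4OI and KO_CTR, and the interferon-stimulated list is low in KO_4OI and high in KO_CTR.

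RANKL signals through NF-kB. Of 23 NF-kB subunits and feedback genes 10 fell and 1, Tnip3, rose (median -0.44). Tnip3 did not pass without KO_4OI replicate 1 or 2 or WT_CTR replicate 2 or 3 (adjusted p 0.0628 to 0.0932), nor without the libraries that held Xist reads (adjusted p = 0.093). The non-canonical subunits Nfkb2, with 96.1, 76.3 and 122 CPM in KO_4OI, against 215, 221 and 266 CPM in WT_CTR (log2 fold change -1.25, SE 0.23, adjusted p = 0.00113), and Relb (-1.31) and the target Traf1 (-1.76) fell, and Rela did not pass (-0.17). Of 20 inflammatory mediators 9 rose and 4 fell. The prostaglandin enzymes Ptgs1, with 40.6, 40.2 and 49.7 CPM in KO_4OI, against 9.81, 11.3 and 13.7 CPM in WT_CTR (log2 fold change 1.91, SE 0.18, adjusted p = 7.11e-06), Ptgs2 (2.29) and Ptges (1.64) rose, as did the inflammasome gene Nlrp3 (1.12). Il1b (-0.39) did not pass, and the interleukin 1 antagonist Il1rn (-0.93) and gasdermin D (Gsdmd, -0.93) fell. Among chemokines 6 of 25 rose, with the neutrophil attractant Cxcl3 at 200 reads over KO_4OI and 8 over WT_CTR (ratio 28.4, interval 14.1 to 66.6), and 6 fell, among them Ccl7, which attracts monocytes (-2.17). Without WT_CTR replicate 1, 3 chemokine genes fell.

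Energy metabolism shifted by small amounts in many genes. Of 49 nuclear genes of the respiratory chain 43 fell (25 without the libraries that held Xist reads), with a median of -0.62, and all 49 had their KO_4OI libraries below those of WT_CTR, a placing found for 22.1% of all genes. Cyc1, cytochrome c1, had 232, 195 and 268 CPM in KO_4OI, 435, 575 and 406 CPM in KO_CTR and 461, 483 and 532 CPM in WT_CTR (log2 fold change -1.09, SE 0.16, adjusted p = 2.76e-04). Atp5b, the catalytic subunit of ATP synthase, had 1685, 1566 and 1856 CPM in KO_4OI, against 2781, 2726 and 3061 CPM in WT_CTR (log2 fold change -0.75, SE 0.12, adjusted p = 5.64e-04). Of 23 TCA cycle genes 20 fell (13 without the libraries that held Xist reads) and 1, the carboxylase Pcx, rose (0.69, adjusted p = 0.0345), which did not pass without KO_4OI replicate 1, KO_4OI replicate 3, KO_CTR replicate 1, WT_CTR replicate 1 or WT_CTR replicate 2 (adjusted p 0.0555 to 0.16), nor without the libraries that held Xist reads (adjusted p = 0.27). Malate dehydrogenase Mdh2 (-1.03) and the pyruvate dehydrogenase subunits Pdhb (-0.98) and Dlat (-1.02) fell. None of the respiratory chain or TCA cycle genes passed a test for a change of more than 2-fold (edgeR glmTreat). Sdhb, a subunit of succinate dehydrogenase, the enzyme that itaconate is known to inhibit, fell too (-0.72). Of 13 protein-coding genes encoded in the mitochondrion 6 fell. The share of reads from all mitochondrially encoded transcripts, these and others, was 2.43%, 2.56% and 2.14% in KO_4OI. It was at least 2.68% in each of the other 6 libraries. The part of that share in the result was not tested. The count of 6 was 1 without the libraries that held Xist reads, 3 without WT_CTR replicate 2 and 3 without KO_4OI replicate 1, and mt-Nd2 had 1621, 1699.9 and 1811 CPM in KO_4OI, against 2526, 2859 and 2572 CPM in WT_CTR (log2 fold change -0.63, SE 0.13, adjusted p = 0.00255).

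Of 28 genes of glycolysis and hypoxia-inducible factor 1, 8 rose and 1, Pdk1, fell, with a median of 0.11. Together these were 32.1% of the list, beside 24.3% of all genes. The glucose transporter Slc2a1 (1.04), the hexokinase Hk3 (1.11) and Pkm (0.75) were higher, and Hif1a (0.33) and Ldha (-0.09) did not pass. The call for Pdk1 was lost without the libraries that held Xist reads (adjusted p = 0.098). Genes of the degradation of itaconate and propionate fell in 4 of 13 cases, with Clybl, which breaks down the citramalyl-CoA formed from itaconate, at 28.1, 24.2 and 26.4 CPM in KO_4OI, against 43.7, 42.2 and 44.2 CPM in WT_CTR (log2 fold change -0.73, SE 0.14, adjusted p = 0.00206). In the list of ATF4 targets and amino acid synthesis 6 of 25 rose and 4 fell, with a median of -0.08. These made up 40% of the list, beside 24.3% of all genes. Atf3 rose, with 161, 163 and 179.9 CPM in KO_4OI, 29.9, 55.4 and 26.4 CPM in KO_CTR and 15.1, 12.8 and 23.1 CPM in WT_CTR (log2 fold change 3.30, SE 0.29, adjusted p = 3.25e-06). Asns (-0.35) and Ddit3 (0.31) did not pass.

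Few genes passed in several housekeeping groups, beside 24.3% of all genes. In edgeR 0 of 27 mitotic genes passed (DESeq2 and limma-trend also passed 0, and 1 had p under 0.05 before adjustment), with Mki67 at 252, 279 and 219 CPM in KO_4OI, against 303, 284 and 218 CPM in WT_CTR (-0.10, adjusted p = 0.805). The median of the list was 0.04 for KO_4OI over WT_CTR and -0.44 for KO_CTR over WT_CTR. For KO_4OI over KO_CTR it was 0.52, with 7 mitotic genes higher and 0 lower. Of 28 S phase genes 2 rose and 1 fell against WT_CTR. The calls for the S phase genes Cdc45 and Ung were lost in some fits, such as without KO_4OI replicate 2 (adjusted p = 0.0768 and 0.0506). Of 42 cytosolic ribosomal protein genes 0 passed (0 also by DESeq2, by limma-trend and at p under 0.05 before adjustment). Of 32 proteasome genes 1 passed, against 2 when KO_CTR replicate 2 or 3 was left out and 0 when any other single library was. Of 25 heat shock and chaperone genes 1 rose and 2 fell. Without KO_CTR replicate 2 3 rose and without the libraries that held Xist reads 0 did, and 1 fell when any KO_4OI library or WT_CTR replicate 1 or 2 was left out. Of 25 cyclins, CDK inhibitors and p53 targets 6 rose and 1, Cdk6, fell, together 28%, near the 24.3% of all genes. The cell cycle inhibitor Cdkn1a (0.83) and Gadd45g (1.99) were among those that rose. The calls for Cdkn1a and Cdk6 were lost without the libraries that held Xist reads (adjusted p = 0.0564 and 0.222). Cdk6 also did not pass without KO_CTR replicate 3, WT_CTR replicate 1 or 2, or any KO_4OI library (adjusted p 0.0612 to 0.179).

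Markers of other marrow cells also moved in places. Neutrophil markers summed to 2697, 3289 and 2205 CPM in KO_4OI, 1061, 1469 and 1005 in KO_CTR and 993, 823 and 1178 in WT_CTR, and 7 of 14 rose. Much of the KO_4OI sum was Mmp8, with 1312, 1851 and 999 CPM in KO_4OI, against 68.9, 64.7 and 60.6 CPM in WT_CTR (log2 fold change 4.42, SE 0.23, adjusted p = 2.44e-08). The granule gene Ctsg rose by less (1.12), and Ltf (0.17) and Camp (0.04) did not pass. The count was 3 without WT_CTR replicate 1, 3 without WT_CTR replicate 2, 4 without KO_4OI replicate 1 and 3 without the libraries that held Xist reads. B cell markers summed to 129, 147 and 120.4 CPM in KO_4OI, 108, 152 and 120.1 in KO_CTR and 57.3, 69.3 and 91.5 in WT_CTR. Ighm (1.00) was 1 of 4 of 12 that rose, and the count was 2 when KO_4OI replicate 1 or 2 or WT_CTR replicate 1 or 2 was left out, and also without the libraries that held Xist reads.

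Erythroid and megakaryocyte markers summed to 153, 162 and 173 CPM in KO_4OI, 118, 186 and 117 in KO_CTR and 75.5, 81.3 and 113 in WT_CTR, with Pf4 (1.62) as the 1 of 10 that passed (2 without KO_CTR replicate 2). Endothelial markers summed to 185, 205 and 190.3 CPM in KO_4OI, 37.9, 58.0 and 34.0 in KO_CTR and 31.4, 31.7 and 42.5 in WT_CTR, most of the difference in Ednrb and Esam. Of 8 tested 3 rose and 1 fell. Pecam1, an adhesion molecule of endothelial and myeloid cells, had 7.41, 7.99 and 7.30 CPM in KO_4OI, against 4.94, 5.57 and 5.81 CPM in WT_CTR (0.47, adjusted p = 0.0583, and 0.0363 without KO_CTR replicate 2). Vwf, von Willebrand factor, had 15.1 to 19.2 CPM in KO_4OI, 12.9 to 25.4 CPM in KO_CTR and at least 11.2 CPM in each WT_CTR library, and its change did not pass (0.28, adjusted p = 0.485). Kdr, a receptor for vascular endothelial growth factor, fell (-2.11). Eng, a co-receptor of the TGF-beta family, rose (0.97, adjusted p = 0.0335), but not without KO_4OI replicate 3, WT_CTR replicate 1 or WT_CTR replicate 2 (adjusted p 0.101 to 0.141), nor without the libraries that held Xist reads (adjusted p = 0.327). Of the members with too few reads to be tested, Cldn5 had 0 reads in every library, Tek 9 reads over KO_4OI and 2 over WT_CTR, and Emcn 0 reads over both of these groups. Mast cell, T and NK cell and stromal lists each summed to under 22 CPM in every library. Of 2 adipocyte markers tested Fabp4 rose, and Adipoq had 4 reads over KO_4OI and 0 over WT_CTR. The part of other cell types in the lists above was not tested.

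Some of the largest increases were in genes of varied function. Ednrb, an endothelin receptor, had 65.7, 97.0 and 46.0 CPM in KO_4OI, 1.06, 0.795 and 1.70 CPM in KO_CTR and 1.12, 0.791 and 0.513 CPM in WT_CTR (log2 fold change 6.45, SE 0.38, adjusted p = 7.28e-08). Esam, an adhesion molecule, had 75.5, 65.4 and 86.4 CPM in KO_4OI, against 1.08, 0.889 and 1.85 CPM in WT_CTR (log2 fold change 5.87, SE 0.36, adjusted p = 1.07e-07). Hal, which breaks down histidine, had 40.9, 51.9 and 44.4 CPM in KO_4OI, against 1.35, 0.922 and 1.37 CPM in WT_CTR (log2 fold change 5.23, SE 0.23, adjusted p = 8.94e-09). The serpins Serpinb9b (5.68), Serpinb1b (4.69) and Serpinb9 (4.14), relatives of an inhibitor of granzyme B and of neutrophil elastase, rose, with close paralogs in the genome. Slc16a9, a carrier of the monocarboxylate transporter family, had 1068 reads over KO_4OI and 8 over WT_CTR (ratio 152, interval 76.6 to 352), and Eef1a2, a translation elongation factor, had 1002 against 35 (ratio 32.5, interval 23.2 to 46.9). KO_CTR lay far below KO_4OI in these genes, and none of them passed for KO_CTR over WT_CTR.

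On the other side, Htr1b, a serotonin receptor, had 1.43, 0.896 and 0.416 CPM in KO_4OI, 8.63, 5.52 and 7.85 CPM in KO_CTR and 16.4, 12.7 and 10.4 CPM in WT_CTR (log2 fold change -3.83, SE 0.34, adjusted p = 4.14e-06). Serpind1, which encodes the thrombin inhibitor heparin cofactor II, had 0.880, 1.01 and 1.55 CPM in KO_4OI, against 16.6, 17.4 and 13.6 CPM in WT_CTR (log2 fold change -3.79, SE 0.24, adjusted p = 1.89e-07). Pgf, a growth factor of the vascular endothelial family, had 1.10, 1.19 and 1.70 CPM in KO_4OI, against 10.5, 11.7 and 10.1 CPM in WT_CTR (log2 fold change -3.01, SE 0.21, adjusted p = 5.27e-07). The collagen gene Col27a1 had 12.4, 8.44 and 14.7 CPM in KO_4OI, against 66.9, 63.2 and 64.4 CPM in WT_CTR (log2 fold change -2.45, SE 0.24, adjusted p = 9.78e-06). St8sia6, a sialyltransferase, had 0.917, 1.57 and 0.605 CPM in KO_4OI, 22.5, 18.5 and 17.7 CPM in KO_CTR and 9.11, 11.4 and 8.52 CPM in WT_CTR (log2 fold change -3.23, SE 0.28, adjusted p = 3.27e-06), and Krt7, a keratin, had a log2 fold change of -2.94. KO_4OI and WT_CTR did not overlap for any of these, and in St8sia6 the KO_CTR libraries lay above both.

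Changes occurred at every level of expression and mostly in protein-coding genes. Of 12345 protein-coding genes 25.6% passed, of 376 long intergenic RNAs 27.7%, and of 506 processed pseudogenes 5.93%. By mean level, 16.4% passed under 1 CPM, 29.7% from 1 to 10 CPM, 22.4% from 10 to 100 CPM, 30.4% from 100 to 1000 CPM and 34.4% of the 122 genes above that, of which 20 were higher and 22 lower. Low genes have wider counting error, and a gene that did not pass at such a level may still differ.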

How the data were processed

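The files held read counts per gene, as deposited by the authors, for 9 mouse libraries. Reads were processed with fastp, STAR and HTSeq 0.6.1 on mm10, per the submitters' processing notes; which releases of STAR and fastp, which gene annotation and which strand option were used is not given in the sources used here. Genes that share reads with a near-identical copy or overlap another gene are therefore uncertain.

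Counts were tested with edgeR 4.0.16 (R 4.3.3): TMM scaling, filterByExpr with a minimum count of 10, 1 quasi-likelihood model over the 3 groups of 3 libraries, and Benjamini-Hochberg adjustment over 14264 genes at 0.05. Levels are CPM on TMM-scaled library sizes, with the SE taken from the test statistic. Symbols (for 54409 of 54532 IDs), positions and merged exon lengths, used for TPM, came from a GENCODE annotation of GRCm38. Alternatives used DESeq2 1.42.0, limma-trend in limma 3.58.1, other scalings, filters and designs, and each library left out in turn. Few-read ratios carry exact intervals at 95% confidence, for counting error only.

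Genes were named by a rule: Acod1, the genes with the largest rises and falls (up to 12 of each) at a mean of at least 5 CPM and no overlap, up to 5 genes of each list by p and up to 3 against its direction, 8 genes from KO_CTR against WT_CTR, the 10 most abundant transcripts, and defining markers near 0. The members, the 56 lists and the tests were chosen with earlier results of these data known. Promoter windows came from RefSeq tables of GRCm38.p6, used for sequence only.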

Additional observations from a re-analysis of the deposited data

How the results depend on the processing

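Across the alternatives run, the number of genes past the threshold lay between 2355 (without the libraries that held Xist reads) and 4366 (without KO_CTR replicate 2), apart from a test for more than a 2-fold change (glmTreat), which passed 645 genes, 419 higher and 226 lower, so that 65% of its calls were higher against 49.9% in the test reported. Under glmTreat 4 cholesterol, 10 resorption, 11 interferon-stimulated, 6 macrophage, 0 TCA cycle and 0 respiratory chain genes passed. With a mean of at least 5 CPM 12 interferon-stimulated genes fell, and without the libraries that held Xist reads 13 TCA cycle and 25 respiratory chain genes fell. Leaving out each library in turn gave 2487 to 4366 genes, 1271 to 2238 higher and 1154 to 2128 lower, the lowest of these, 1154, without KO_4OI replicate 1. It gave 37 to 40 NRF2 targets, 16 to 21 cholesterol genes, 13 to 15 macrophage markers and 17 to 19 Fc and immune receptors higher, and 22 to 23 resorption, 16 to 22 interferon-stimulated, 16 to 20 TCA cycle and 29 to 46 respiratory chain genes lower. The median of the integrin list was 0.09 without the libraries that held Xist reads (-0.16 in the test reported), and that of the ATF4 list 0.11 without KO_4OI replicate 2 (-0.08 in the test reported, and -0.11 to 0.11 over all libraries left out). The cause was not tested. Of 270 genes named by the rule and past the threshold, 217 passed in every setting that gave them an adjusted p, glmTreat aside. Some of them, such as Acod1, had no adjusted p in some setting. Groups share replicate numbers, and deviations of same-numbered KO_4OI and WT_CTR libraries correlated at 0.136, 0.083 and 0.235. Those of different-numbered libraries correlated at -0.21 to 0.118, the highest for KO_4OI replicate 2 with WT_CTR replicate 1. The labels do not say that the numbers mark pairs, and they were not taken as pairs in the test reported. A fit that took replicate number as a block passed 2871 genes, 1479 higher and 1392 lower. Depth limits genes under 1 CPM most, and 3 libraries a group limit the precision of every value.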
